A study of Rattus norvegicus with 17 samples.

Results

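The testis of unexposed rat fetuses at gestational day 21 was described from 3 of the 17 libraries of a study of the plasticizer dipentyl phthalate (DPeP). The 3 libraries are those titled VEH_, here replicates 01, 08 and 15. They came from wild type Sprague Dawley fetuses whose dams received only the corn oil vehicle, 2.5 mL/kg by oral gavage, from gestational day 17 to 21. The testes were collected on gestational day 21, and RNA of 1 testis, or of a pooled pair of littermate testes, went into each library. The other 14 libraries came from DPeP-dosed dams and are not described. The sources used here do not say whether each vehicle library came from its own dam. If libraries shared a dam, the spread among them would understate the variation between dams. The spread may also be partly technical, and that part was not tested. Each of the 3 libraries also carries a different sample code in its title. With 1 vehicle library for each code, spread among libraries cannot be separated from differences between codes. All values are absolute levels within 1 group, and no dose was compared and no test was run.

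The fetal testis makes the hormones that masculinise the male fetus. Leydig cells, between the cords, take up or make cholesterol and turn it into androgens, and they release INSL3, which drives the first phase of testis descent. Sertoli cells, inside the cords, surround the germ cells and release anti-Müllerian hormone, which removes the duct that would otherwise form the uterus. Late fetal germ cells of the rat are arrested prospermatogonia, and meiosis starts only after birth.

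Levels are TPM as deposited, read counts divided by the exon length of the gene and scaled to the same total in every library, so that levels of different genes can be set side by side. Replicates 01, 08 and 15 held 15948971, 17920695 and 16398867 reads counted to genes. Of 30560 genes, 15360 had at least 1 TPM in all 3 libraries, 24262 had a count in any, and 9168 were under 3 counts in every library, the floor used here for detection. By their mean, 104 genes reached 1000 TPM, 1549 reached 100 TPM and 10270 reached 10 TPM. Floors and counting errors cover the sampling of reads only.

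The RNA pool was concentrated in few genes. The 524 highest genes held 50% of the summed mean TPM, the 10 highest held 14.0% ± 0.38 and the 100 highest 31.4% ± 0.93 (SD, n = 3). The mitochondrial genome gave 15.7% ± 0.52 of TPM, and its 13 protein genes all ranked among the 30 highest genes. They ranged from Mt-co1, a subunit of cytochrome c oxidase, at 24541, 24040 and 25033 TPM in replicates 01, 08 and 15, to Mt-nd6, a subunit of complex I on the other strand, at 2121, 2537 and 2157 TPM. The kit keeps no strand information, so RNA of the opposite strand could count towards Mt-nd6. Its level and its place among the 30 highest genes are therefore uncertain. Cytosolic ribosomal proteins gave another 11.0% ± 0.70, and they made up 21 of the 30 highest named genes of the nuclear genome.

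**Figure D1:**
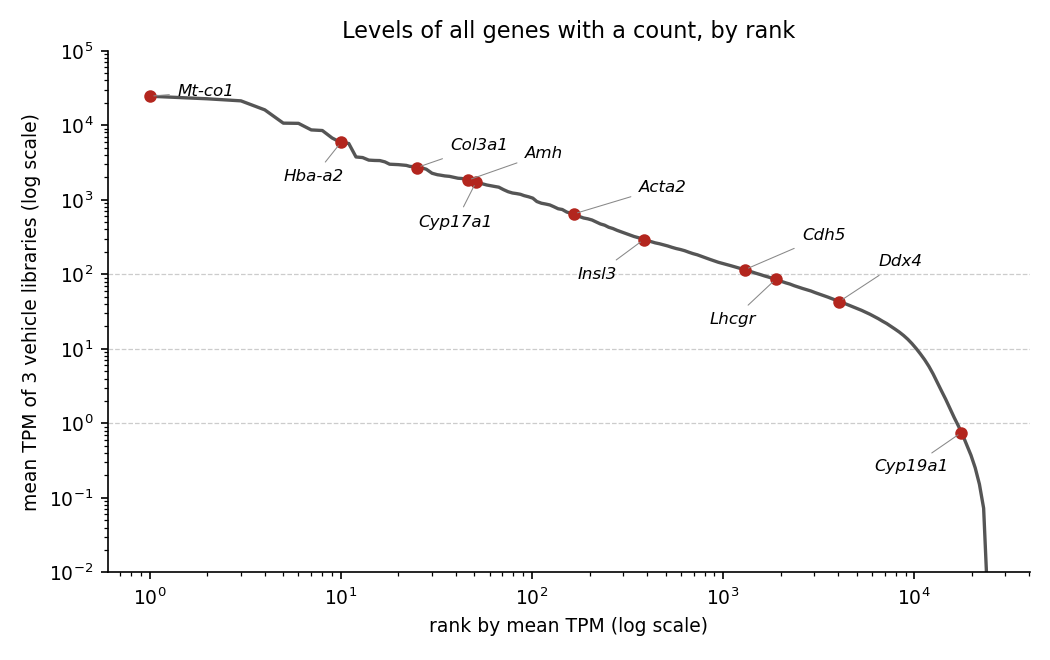
Mean TPM over the 3 vehicle libraries (log scale) of every gene with a count against its rank (log scale), with 11 genes marked and dashed lines at 1, 10 and 100 TPM. Amh and Cyp17a1 sit among the 60 highest genes, Acta2 and Insl3 at ranks 165 and 384, Ddx4 near rank 4054 and Cyp19a1 below 1 TPM.

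Apart from the ribosomal proteins, the named nuclear genes of highest level had varied roles. Hba-a2, an alpha chain of haemoglobin, was highest over the full exon length with 6349, 5253 and 6020 TPM in replicates 01, 08 and 15 (rank 10 of all genes). Over unshared exon length it averaged 5524 TPM and stood below Eef1a1, a translation elongation factor, which then averaged 13833 TPM. That value for Eef1a1 holds only if every counted read fell outside the 95.4% of its exon length that is shared, which is not known. Over the full exon length, Actb, the cytoplasmic actin, Fth1, the heavy chain of ferritin, and Col3a1, the type III collagen chain, followed Hba-a2. Col3a1 had 2867, 2704 and 2557 TPM. Bst2, an interferon-inducible membrane protein, was close behind with 2580, 2558 and 2830 TPM. Amh, Cyp17a1 and Hsd3b1 were the 10th, 11th and 12th genes in this order, above Tubb5, a beta tubulin, and Ptma, prothymosin alpha.

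Several genes of that range are better known from other settings. Cpa1, carboxypeptidase A1, a digestive enzyme of the pancreas, had 1487, 999 and 1162 TPM (rank 82). Colec11, a soluble lectin of innate immunity, had 976, 1127 and 1121 TPM (rank 100). Dlk1, an imprinted Notch-related ligand of fetal tissues, had 1161, 1083 and 1076 TPM, and the imprinted RNA H19 had 843, 1046 and 956 TPM. The highest gene without a symbol, ENSRNOG00000056765 on the X chromosome, had 2138, 2092 and 2183 TPM (rank 34).

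Named markers of the main cell types of the testis were present in all 3 libraries, in the order Amh, Cyp17a1, Acta2, Insl3, Cdh5 and Ddx4. The ranges of Amh and Cyp17a1 overlapped. The ranges of the other 4 did not overlap with those of their neighbours in this order. The place of Insl3 below Acta2 holds for the full exon length and turns over the unshared length. A bulk library cannot tell fewer cells of a type from less RNA per cell, so this order is not an order of cell numbers.

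Amh, the anti-Müllerian hormone of Sertoli cells (ENSRNOG00000019377, mRatBN7.2 chromosome 7, 8906836 to 8909282, minus strand), had 2174, 1519 and 1793 TPM in replicates 01, 08 and 15. It was the highest gene of the Sertoli cell list in each library and the 46th of all genes. Its promoter is shown because Amh led, by its mean, all the cell type markers outside blood and matrix. A binding motif of the gonadal nuclear receptor NR5A1 was searched in it and in the promoters of other genes. The sequence is RefSeq's on build GRCr8, chr7:9559818-9560117, minus strand, from 250 bases before to 50 after the start. It is printed 5′ to 3′ with matches to CAAGGNCA, searched on both strands, in capitals.

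Amh: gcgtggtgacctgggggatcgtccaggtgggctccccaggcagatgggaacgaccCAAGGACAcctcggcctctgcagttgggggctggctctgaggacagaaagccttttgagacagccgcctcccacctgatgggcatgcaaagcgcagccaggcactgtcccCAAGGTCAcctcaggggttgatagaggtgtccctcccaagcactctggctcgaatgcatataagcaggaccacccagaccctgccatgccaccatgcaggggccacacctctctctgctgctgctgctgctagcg

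The Amh window held 2 matches on the gene's own strand, which begin 195 and 85 bases before the start. Of 33469 RefSeq promoters of the same 300 bases, 6.55% held at least 1 match. Among the 12 genes of steroid synthesis with at least 100 TPM, 9 had a promoter entry and 0 of these held a match. The windows of Insl3, Inha and Nr5a1 also held 0. Of 7 windows of steroid genes under 1 TPM, 1 held a match, that of Akr1c3. A match is a run of letters only, and a window without one says nothing about the receptor. Nr5a1 itself, the nuclear receptor that switches on gonadal steroid genes, had 255, 199 and 231 TPM and was the highest of the 48 nuclear receptors searched.

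Leydig cell genes gave the largest summed level of the gonad-specific lists. The 20 listed genes were all matched and all reached 1 TPM, 11 of them 100 TPM, and their sum was 8031, 6448 and 7619 TPM in replicates 01, 08 and 15. Replicate 08 was lowest for the sum and for 11 of the 20 genes, and for 29.8% of all genes of at least 1 TPM. It was also the library with the highest summed germ cell, macrophage, surface epithelium (361, 415 and 370 TPM) and liver lists, and the part of these in the lower Leydig sum was not tested. Cyp17a1, the enzyme that turns progestins into androgens, had 1965, 1494 and 1759 TPM. Insl3, the descent hormone, had 286, 261 and 329 TPM (rank 384).

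The level of Insl3 rests on a long gene model. Its exon length is 6658 bases, of which 4083 (61.3%) are shared with Jak3, a cytokine signalling kinase, and with AABR07024869.1. The sources used here do not say whether reads in shared exons were dropped in counting. Over the unshared length alone, Insl3 had 693, 634 and 804 TPM (rank 154), against 647, 609 and 563 TPM for Acta2 computed in the same way, so the ranges overlapped and Insl3 was the higher in every library.

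**Figure D2:**
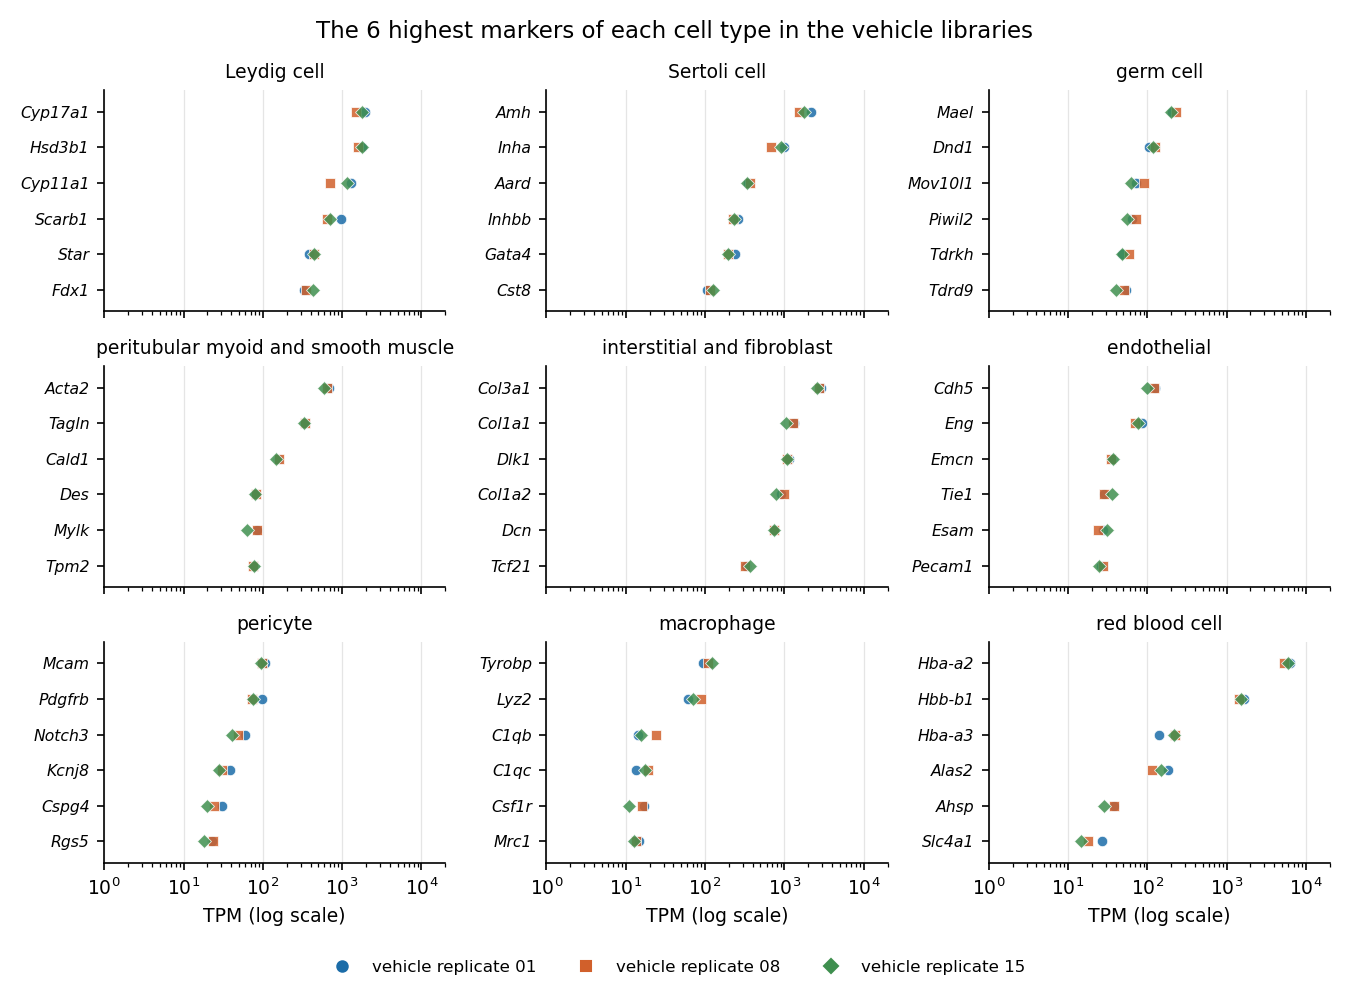
TPM (log scale) of the 6 highest genes of 9 cell type lists, 1 symbol for each of the 3 vehicle libraries. Leydig, Sertoli, fibroblast and red blood cell genes reach 1000 TPM or more, while the leading endothelial, pericyte and macrophage genes lie near 100 TPM and the leading germ cell gene near 211 TPM.

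The steroid pathway ran from very high to undetected. Of 66 listed genes, 60 were matched: 12 had at least 100 TPM, 21 had 10 to 100, 12 had 1 to 10, 12 were under 1 TPM, and 3 were not detected. The list gave 0.83% ± 0.086 of the summed TPM (SD, n = 3).

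Cholesterol supply was led by Scarb1, the receptor that takes cholesterol from high density lipoprotein, at 973, 643 and 709 TPM. Star, which carries cholesterol into the mitochondrion and is the acute regulator of the pathway, had 378, 441 and 440 TPM. Replicate 01, highest for Scarb1, was lowest for Star. Soat1, which esterifies cholesterol for storage, had 182, 173 and 153 TPM, and Lipe, the hormone-sensitive lipase that frees it, had 13.0, 10.8 and 10.8 TPM.

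Cyp11a1, which cleaves the side chain of cholesterol to give pregnenolone, was the most variable of the high steroid enzymes. It had 1283, 714 and 1159 TPM, a CV of 28.5% where read counting alone would give 0.82%. Replicate 08 was low and the other two were close to each other. Its electron donors Fdx1, ferredoxin, had 335, 351 and 429 TPM, and Fdxr, ferredoxin reductase, had 189, 151 and 205 TPM, with Fdx1 above Fdxr in every library. As a ratio to Cyp11a1, Cyp17a1 stood at 1.53, 2.09 and 1.52, and Hsd3b1 at 1.37, 2.26 and 1.54.

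Hsd3b1, a 3-beta-hydroxysteroid dehydrogenase that makes progesterone and androstenedione, had 1759, 1609 and 1790 TPM, a CV of 5.61%. Its range overlapped that of Cyp17a1. Its near copy Hsd3b3 had 247, 206 and 238 TPM, and how the counting split reads between them is uncertain. Por, the electron donor of CYP17A1, had 126, 103 and 119 TPM, and Cyb5a, the cytochrome b5 that favours its lyase step, had 72.9, 53.9 and 62.8 TPM.

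Which enzymes served the last step to testosterone was not tested. Hsd17b3, the testicular 17-beta-hydroxysteroid dehydrogenase, is the isoform best known for it. Hsd17b3 had 173, 176 and 199 TPM, 11.2, 14.2 and 12.3 times the level of Hsd17b1, the isoform best known for making estradiol. Hsd17b3 was lower than Cyp17a1, at 0.088, 0.118 and 0.113 of its level. It was also lower than Hsd3b1 in every library.

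Genes that act on testosterone were low. Srd5a1, a steroid 5-alpha-reductase, had 4.02, 4.57 and 5.00 TPM. Srd5a2, the isoform of the male genital tract, had 0.25, 0.14 and 0 TPM. Srd5a3, a related reductase used in protein glycosylation, had 48.6, 45.6 and 40.3 TPM, 8.05 to 12.1 times the level of Srd5a1. Cyp19a1, the aromatase, had 0.67, 0.89 and 0.70 TPM.

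Enzymes of corticoid synthesis and turnover ran from not detected to about 20 TPM. Cyp21a1, the adrenal 21-hydroxylase, had 1 read in all, in replicate 08, and 3 reads would have given at most 0.227 TPM in any library. Cyp11b1, the 11-beta-hydroxylase, had 4.45, 2.78 and 4.38 TPM, and Cyp11b2, the aldosterone synthase, had 0.54, 0.18 and 0.05 TPM. Hsd11b2, which inactivates glucocorticoids, had 18.5, 13.6 and 21.3 TPM, 16.5 to 37.3 times the level of Hsd11b1, which reactivates them. Hsd3b5 and Ugt2b15, a glucuronidating enzyme, were the other genes not detected.

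**Figure D3:**
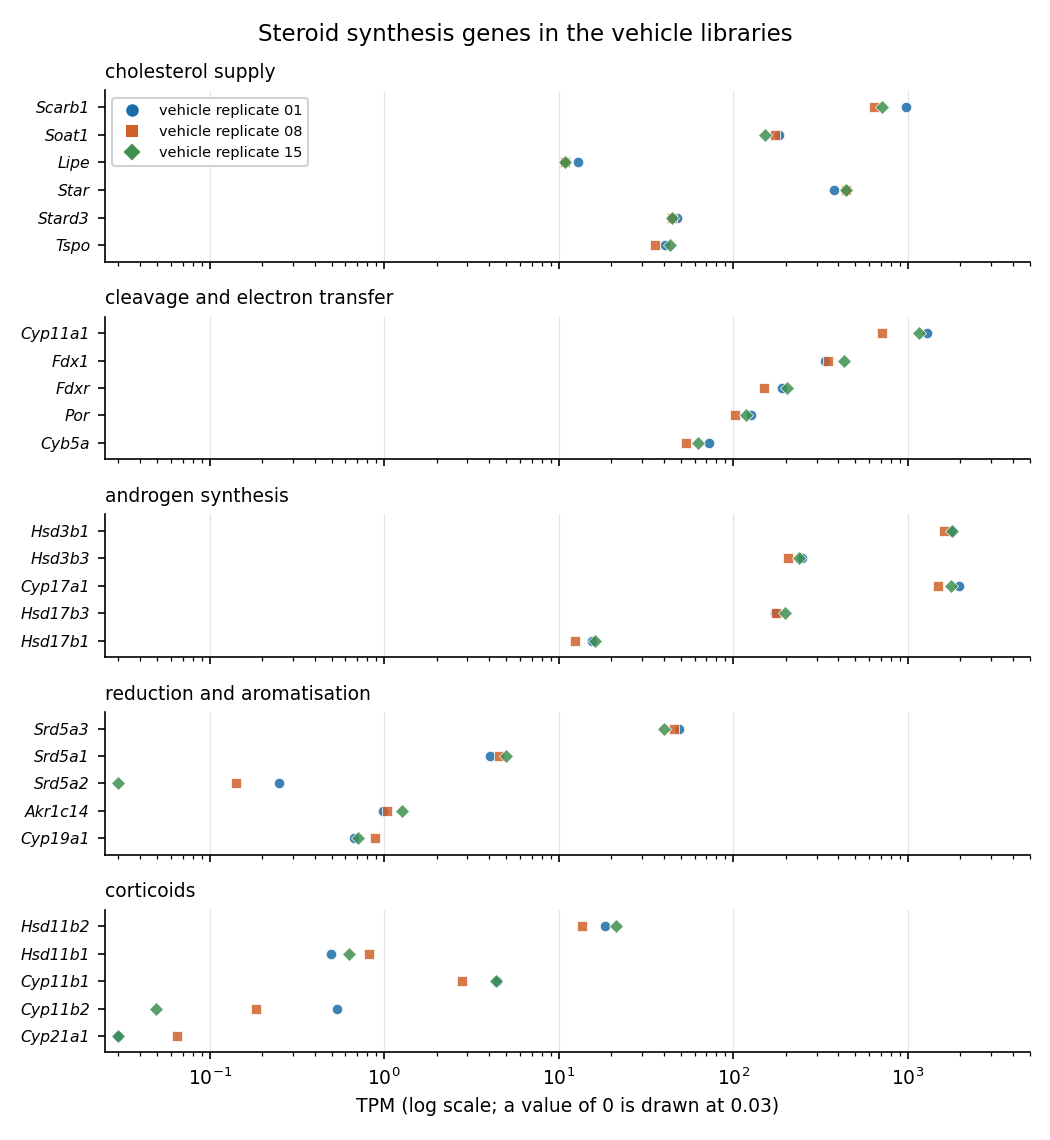
TPM (log scale, 0 drawn at 0.03) of 26 genes of steroid synthesis in the 3 vehicle libraries, 1 symbol each, in the order of their roles. Genes from cholesterol uptake to androgens lie between 10 and about 2000 TPM, and Srd5a2, Cyp19a1, Cyp11b2 and Cyp21a1 lie under 1 TPM, with replicate 08 lowest for Cyp11a1.

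The receptors that control these steps were lower than the leading enzymes. Lhcgr, the Leydig cell receptor for luteinizing hormone, had 116, 70.3 and 70.9 TPM. It was at 7.06, 4.34 and 6.59 times the level of Fshr, the Sertoli cell receptor for follicle-stimulating hormone, which had 16.4, 16.2 and 10.8 TPM. Prlr, the prolactin receptor, had 17.8, 10.3 and 9.14 TPM, and Crhr1, the receptor for corticotropin-releasing hormone, had 15.1, 9.96 and 11.5 TPM. Mc2r, the adrenal receptor for corticotropin, had 0.39, 0.22 and 0 TPM, and Tshr, the thyrotropin receptor, had 0.55, 0.81 and 0.15 TPM.

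Of 46 matched hormone and growth factor receptors, 3 had at least 100 TPM, 28 had 10 to 100, 8 had 1 to 10 and 7 were under 1 TPM. The highest was Pdgfra, a receptor for platelet-derived growth factor on interstitial precursor cells, at 318, 258 and 238 TPM. Fgfr1, a fibroblast growth factor receptor, had 125, 105 and 105 TPM, and Smo, the signal transducer of hedgehog, had 120, 105 and 104 TPM. Amhr2, the receptor for anti-Müllerian hormone, had 29.4, 32.0 and 43.4 TPM, so that the hormone's transcript was at 74.1, 47.5 and 41.4 times its level. Rxfp2, the receptor for INSL3, had 3.81, 3.37 and 2.40 TPM.

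Among nuclear receptors, 3 of 48 had at least 100 TPM, 14 had 10 to 100, 21 had 1 to 10 and 10 were under 1 TPM. Behind Nr5a1 came Nr2f2, the COUP-TFII factor of interstitial cells, at 173, 148 and 146 TPM, and Thra, a thyroid hormone receptor, at 146, 126 and 127 TPM. Thra was at 137 to 156 times the level of Thrb, the other thyroid hormone receptor. Thra shares 28.5% of its exon length with Nr1d1 on the opposite strand. Nr0b1, the DAX1 repressor, had 74.6, 59.3 and 74.7 TPM.

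Receptors for estrogens and progesterone were low in the whole tissue. Esr1, an estrogen receptor, had 9.11, 6.72 and 4.50 TPM, highest in replicate 01 and lowest in 15. Esr2, the other estrogen receptor, had 1.65, 1.85 and 0.98 TPM, and Pgr, the progesterone receptor, had 3.40, 2.13 and 0.91 TPM. Nr3c1, the glucocorticoid receptor, had 13.6, 12.1 and 11.4 TPM, and Pparg, the adipogenic lipid sensor, had 0.89, 0.64 and 0.62 TPM.

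**Figure D4:**
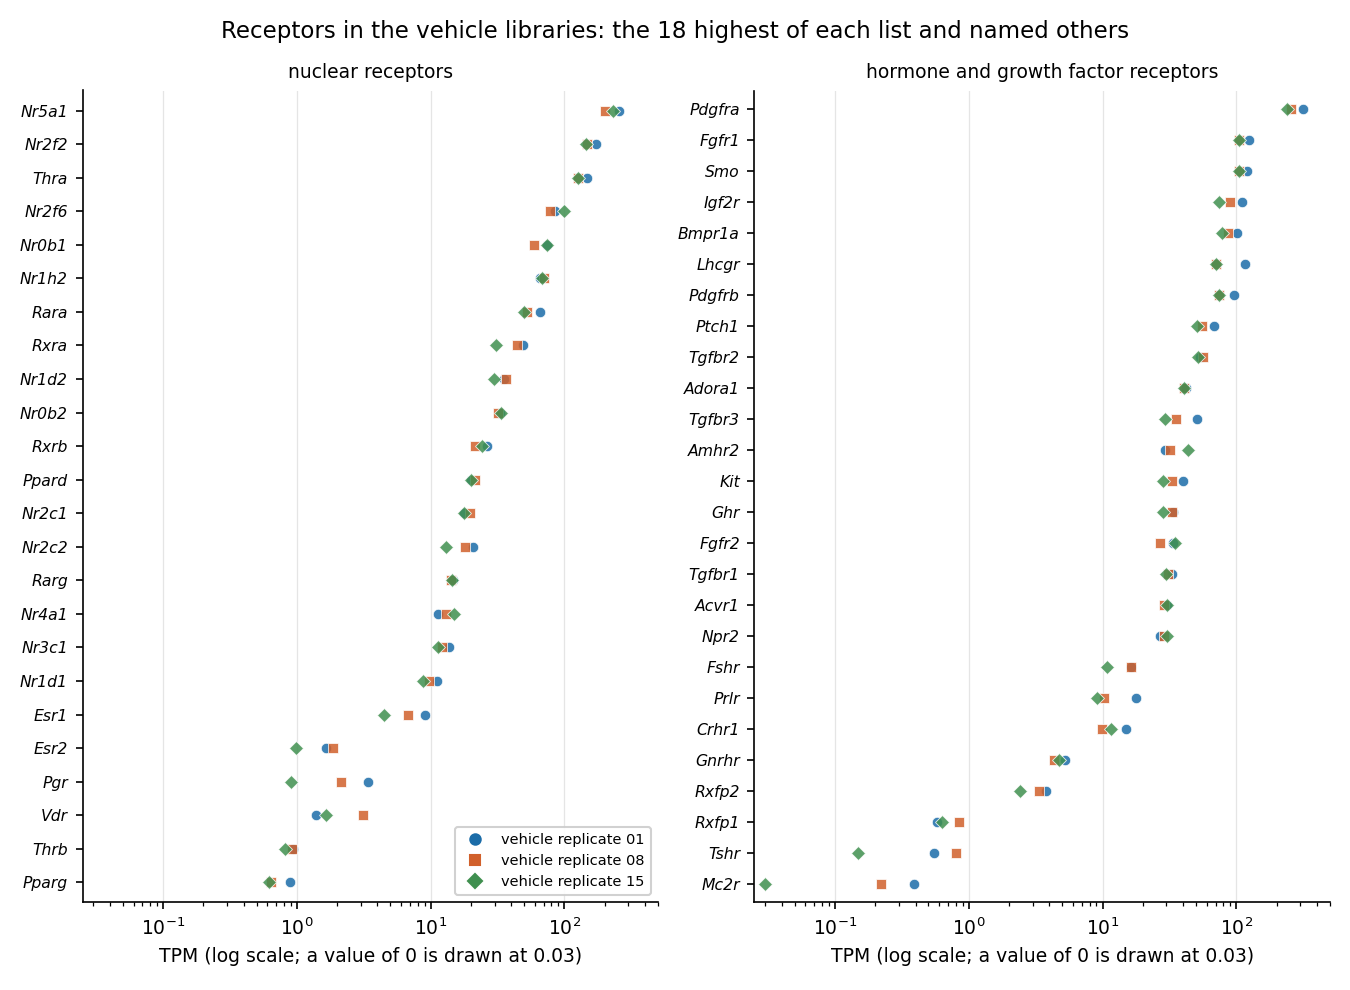
TPM (log scale, 0 drawn at 0.03) of the 18 highest genes of the nuclear receptor list (left) and of the hormone and growth factor receptor list (right), with named others, in the 3 vehicle libraries. Nr5a1 and Pdgfra lead their lists, Esr1 lies between 4 and 10 TPM, and Thrb, Pparg, Rxfp1, Tshr and Mc2r lie under 1 TPM.

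Sertoli cell genes summed to 4992, 3859 and 4431 TPM in replicates 01, 08 and 15, over 27 matched genes of which 7 had at least 100 TPM and 0 were under 1 TPM. Amh held 41.3% of the mean sum. Inha, the alpha subunit that makes inhibins, had 991, 689 and 912 TPM, and Inhbb, the beta B subunit, had 264, 226 and 232 TPM. Inhbb was at 2.31 to 2.81 times the level of Inhba, the beta A subunit. Replicate 08 was lowest for Amh, Inha and Inhbb.

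Among the transcription factors of Sertoli cells, Gata4, a zinc finger factor of the gonad soma, had 237, 197 and 193 TPM, a range that overlapped that of Inhbb, and Wt1, the Wilms tumour factor, had 108, 99.9 and 91.6 TPM. Sox9, the factor that sets Sertoli cell fate, had 34.6, 24.7 and 21.3 TPM, 1.62 to 2.07 times the level of its relative Sox8. Dhh, the hedgehog ligand that Sertoli cells send to the interstitium, had 72.4, 57.8 and 74.7 TPM, while the hedgehog ligands Ihh and Shh averaged 1.21 and 0.68 TPM. Sry, the Y-linked switch of early sex determination, had 0 counts in all 3 libraries, which allows at most 0.872 TPM.

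Germ cell genes formed a smaller part of the pool, with sums of 885, 1015 and 847 TPM over 31 matched genes. Of these, 2 had at least 100 TPM, 17 had 10 to 100, 9 had 1 to 10 and 3 were under 1 TPM. Mael, a factor of the piRNA pathway that silences transposons, had 203, 229 and 202 TPM, and Dnd1, an RNA-binding protein of germ cells, had 107, 124 and 117 TPM. Ddx4, the germ cell RNA helicase, had 39.8, 51.8 and 38.0 TPM (rank 4054). Replicate 08 was highest for Mael, Dnd1 and Ddx4, and for 18 of the 28 genes of at least 1 TPM, where it was highest for 29.9% of all genes of that level.

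Other germ cell genes covered a wide range of levels. Piwil2 and Piwil4, which bind fetal piRNAs, had 63.6, 72.6 and 55.5 TPM and 34.4, 38.4 and 26.4 TPM. Piwil1, the family member of meiotic cells, had 4.04, 3.74 and 2.26 TPM. Pou5f1, the pluripotency factor OCT4, had 12.2, 15.6 and 10.3 TPM, and Nanog had 0.38, 1.51 and 0.68 TPM. Stra8, which marks entry into meiosis, had 1.42, 1.12 and 1.29 TPM, yet Sycp3, a component of the synaptonemal complex, had 31.3, 43.7 and 41.8 TPM.

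Later sperm cell genes were scarce. Of 16 matched genes of meiotic and haploid cells, 0 reached 10 TPM, 7 had 1 to 10, 6 were under 1 TPM and 3 were not detected. Sycp2, another synaptonemal complex gene, was highest at 9.43, 9.13 and 5.67 TPM, and Prm2, a protamine of sperm heads, had 0.31, 0.44 and 0.65 TPM. The spermatid genes Acrv1 and Spata16 and the sperm glycolysis gene Pgk2 were under the floor.

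Interstitial and fibroblast genes summed to 8641, 8317 and 7771 TPM over 21 matched genes, 9 of them at 100 TPM or more. Collagens carried most of it: Col1a1 had 1306, 1296 and 1052 TPM and Col1a2 had 909, 996 and 793 TPM beside Col3a1. Dcn, the collagen-binding proteoglycan decorin, had 740, 747 and 750 TPM. Tcf21, a factor of gonadal stromal precursors, had 330, 316 and 366 TPM, the highest of the 36 gonad transcription factors listed.

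Contractile genes of peritubular myoid and vascular smooth muscle summed to 1702, 1621 and 1497 TPM in replicates 01, 08 and 15. Acta2, smooth muscle actin, had 691, 648 and 597 TPM, and Tagln, transgelin, had 340, 341 and 335 TPM. Myh11, the smooth muscle myosin, had 59.4, 51.6 and 39.4 TPM. All 15 genes of the list reached 1 TPM.

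Endothelial genes summed to 492, 459 and 460 TPM over 18 matched genes, with a CV of 3.98%. Cdh5, the cadherin of endothelial junctions, had 125, 121 and 100 TPM and was the highest, above Eng, the endoglin coreceptor, at 85.4, 70.4 and 77.3 TPM. The pericyte genes were led by Mcam, an adhesion molecule, at 106, 96.7 and 95.7 TPM. Macrophage genes summed to 262, 325 and 298 TPM, of which Tyrobp, a signalling adaptor of myeloid cells, and Lyz2, lysozyme, were the highest. Csf1r, the macrophage growth factor receptor, had 17.1, 16.2 and 11.1 TPM.

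Lymphoid genes were low apart from 1 member. Cd79a, a subunit of the B cell receptor, had 73.5, 65.5 and 87.1 TPM, and it held 82.5% of the list's summed level. Its partner Cd79b had 1.01, 0.47 and 0.083 TPM, and Ms4a1, the B cell surface protein CD20, had 0.097, 0.33 and 0 TPM. Cd3e, a T cell receptor subunit, had 2.71, 3.34 and 2.54 TPM.

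Red blood cell genes were high in all 3 libraries. Haemoglobin genes gave 0.79% ± 0.067 of the summed TPM (SD, n = 3), almost all of it Hba-a2 and Hbb-b1, an adult-type beta chain at 1646, 1422 and 1532 TPM. Near-identical globin copies make the split between them uncertain, and Hbb-b1 shares 43.8% of its exon length with other genes. The gene models of Hba-a2 and Hbb-b1 have 2860 and 3564 exon bases. Where a model is longer than the transcript, its TPM and the haemoglobin share are understated. Alas2, the haem synthesis enzyme of red cell precursors, had 180, 116 and 149 TPM. The embryonic chains Hbz and Hbe1 averaged 11.3 and 17.9 TPM.

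Lists of other organs and of epithelia were summed in the same way. The liver list summed to 10.4, 28.3 and 11.2 TPM, with Alb, albumin, at 0.28, 3.88 and 1.13 TPM. The kidney list summed to 6.49, 7.94 and 6.15 TPM, and the skeletal muscle list to 23.3, 30.1 and 24.7 TPM. In the adrenal lists, Mrap, the accessory protein of the corticotropin receptor, had 25.8, 20.6 and 24.5 TPM, and Chga, chromogranin A, had 27.0, 9.50 and 11.1 TPM. Krt8, a keratin of simple epithelia, led the surface epithelium list at 226, 233 and 244 TPM, highest in replicate 15. Of the 9 genes of that list, 6 were highest in replicate 08, as were 29.9% of all genes of at least 1 TPM. The granulosa cell and ovary list summed to 47.9, 64.2 and 45.6 TPM, and 8 of its 14 genes reached 1 TPM. Its highest genes, Rspo1 and Wnt4, averaged 16.0 and 14.7 TPM. Foxl2, the granulosa cell factor, averaged 0.96 TPM, and Bmp15, an oocyte factor, was not detected.

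A pair of genes listed for the mesonephric tubules and epididymis stood far above the rest of that list. Wfdc10a, a whey acidic protein family member, had 880, 872 and 902 TPM (rank 117), and 34.0% of its exon length is shared with Wfdc9. Svs5, a seminal vesicle secretory protein, had 999, 458 and 616 TPM (rank 151), the highest in replicate 01. The epididymal genes Lcn5, Lcn8, Crisp1, Defb1 and Rnase9 were not detected, and the duct factors Pax2 and Pax8 averaged 1.01 and 1.08 TPM.

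Cell cycle genes summed to 2627, 2552 and 2523 TPM, a CV of 2.10% for the sum, and all 21 reached 1 TPM. The imprinted and fetal growth list had a CV of 2.90% for its sum but a median CV of 13.4% over its genes, against 11.7% over all genes of at least 1 TPM. Pcna, the replication clamp, had 402, 419 and 442 TPM, and Mki67, the proliferation marker, had 86.3, 76.0 and 61.9 TPM. Ccnd2 was at 24.1 to 29.1 times the level of Ccnd1, another D-type cyclin. Igf2, the fetal growth factor, had 163, 212 and 142 TPM, and Igf2r, which clears it, had 110, 90.1 and 74.6 TPM.

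The libraries were close to each other for most genes. Over the 16762 genes with a mean of at least 1 TPM, the median CV among the 3 libraries was 11.7%, and 71.8% of genes had a CV under 20%. The median CV was 22.5% at 1 to 10 TPM, 8.90% at 10 to 100 TPM and 5.74% at 100 to 1000 TPM, where counting alone would give 14.0%, 3.85% and 1.88%. For the 104 genes above 1000 TPM it was 6.86%, against 0.81% from counting. The highest library was more than 2 times the lowest for 2051 genes (12.2%), and for 201 of the 10270 genes of at least 10 TPM.

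Library order depended on the length of the gene. For genes with exons over 8 kb, the median log2 ratio of replicate 15 over 01 was -0.43 and 7.24% of genes were higher in 15. For genes under 1 kb it was 0.05 and 53.1% were higher in 15. Among genes over 4 kb, 69.5% were highest in replicate 01, against 43.1% of genes of 2 to 4 kb and 30.7% of genes under 2 kb. Among the receptors of at least 1 TPM, replicate 01 was highest for 16 of 20 over 4 kb and for 17 of 19 under 4 kb. The order 01, 08, 15 of Esr1 (exon length 3320 bases) is the order of the long genes, and the part of length in it was not tested.

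**Figure D5:**
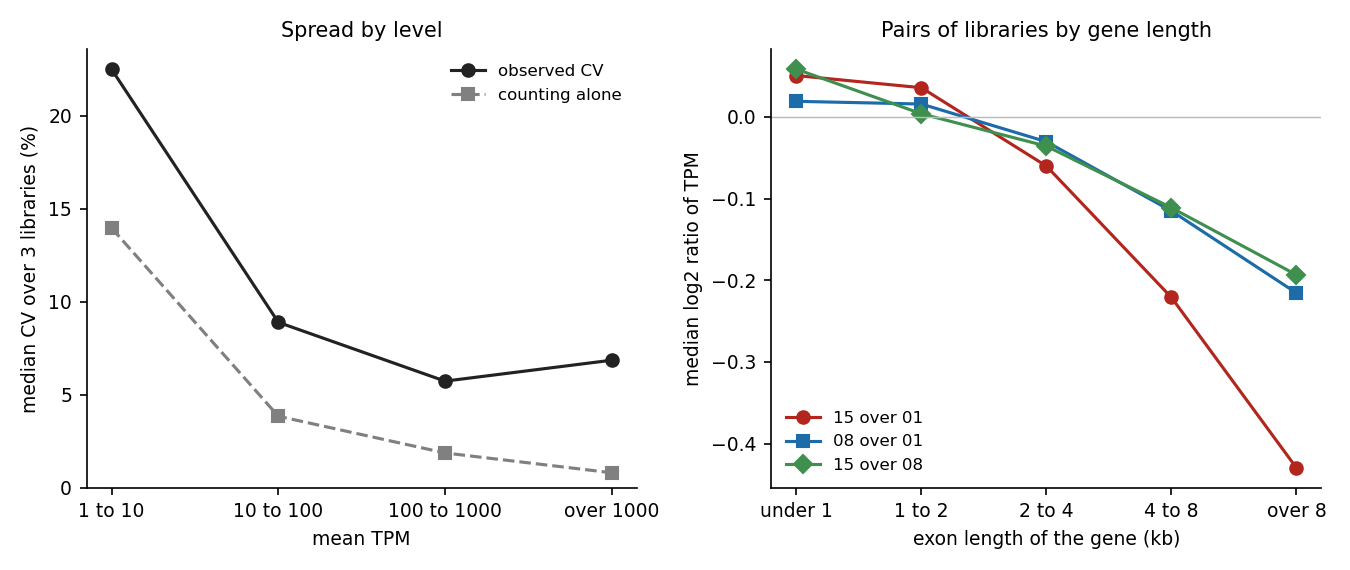
Left, median CV of TPM over the 3 vehicle libraries in 4 classes of mean TPM, observed (black) and from read counting alone (grey). Right, median log2 ratio of TPM between pairs of libraries by the gene's exon length in kb, near 0 for the shortest genes and -0.43 for replicate 15 over 01 above 8 kb.

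Of the 15 named genes with the widest spread beyond counting, 8 had a mean count under 20. Among the others, Fam111a, a protease linked to DNA replication, had 36.1, 152 and 27.0 TPM, and Ephx2, the soluble epoxide hydrolase, had 4.98, 42.6 and 14.0 TPM, both highest in replicate 08. Vsnl1, a neuronal calcium sensor, had 14.2, 1.29 and 5.39 TPM, lowest in replicate 08. Asb15, an ankyrin repeat protein, had 0.54, 4.92 and 13.2 TPM. The 10 genes with the narrowest spread had CVs of 0.17 to 0.40%, and they included Abcf3, U2af2, a splicing factor, and Stoml2, a mitochondrial membrane protein.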

How the data were processed

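PolyA-selected RNA was sequenced in 17 libraries. The kit (NEBNext Ultra II RNA) keeps no strand information. The tools are Trimmomatic 0.36, STAR 2.5.2b and featureCounts from Subread 1.5.2, and the build is mRatBN7.2, per the submitters' processing notes. The sources used here do not give the gene model release, the strand setting or the handling of reads that overlap several genes. The deposited count files give raw read counts per gene, per the file headers. The authors' deposited TPM table is treated as a score, because its 47125 rows hold 30652 identifiers and 9791 of them are repeated. Each identifier was kept once and the 92 spike-in rows were dropped, without rescaling. Recomputed from counts and exon lengths, no TPM differed from the deposited one by more than 5e-05.

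Means, SDs and CVs were computed over the 3 vehicle libraries with Python 3.11.15 and pandas 2.3.3, and TMM factors with edgeR 4.0.16 in R 4.3.3. A gene was not detected when every vehicle library had under 3 counts. The counting CV is 1 over the square root of the mean count. Neighbours in an order are apart where the ranges of the 3 libraries do not overlap. The spread calculation was tested on simulated counts of genes with many reads only. That test does not cover the 8 widest genes with a mean count under 20. Of 593 gene symbols in the lists, 554 were matched in the deposited table. Promoters were matched by symbol to RefSeq's table on GRCr8, whose coordinates are not those of mRatBN7.2. No test was run.

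The members, lists and motifs were chosen with earlier results of these data known. The rule for named genes took the 30 highest named nuclear genes, 6 cell type markers, steroid genes and receptors by class, the 4 highest members of each other list with defining members that were not detected, the 15 widest and 10 narrowest named genes by spread, and the highest gene without a symbol. Not every such gene is described, and other genes described for their role, and the genes ranked by level once ribosomal proteins were set aside, were chosen after their values were seen.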

Additional observations from a re-analysis of the deposited data

Results flagged for a closer look

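Spike-in RNA of the ERCC set, added to the libraries and dropped from the gene tables here, made up 2.89%, 2.66% and 3.56% of the deposited TPM in replicates 01, 08 and 15. It is listed because it lies outside the measurement described and was not used for scaling. Its share was highest in replicate 15. The sources used here do not give the amounts added, so total RNA per sample was not estimated. With 3 libraries, no single library was examined as an outlier within the group.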

How the results depend on the processing

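Of 344 recomputed values for 57 results, 60 moved and 284 did not. Those 284 changed by less than 1 SD among libraries, or by less than 1.5 times for counts of genes. They include 38 medians of 3 libraries and most of the 126 values with 1 library left out. For a mean of 3 libraries neither change can reach 1 SD, so these values do not show that a level or list sum is stable. Leaving out the mitochondrial genes accounted for 36 of the 60, since every other gene is then scaled up. It raised the summed level of the Leydig list to 9006 TPM (7366 as reported), of the Sertoli list to 5411 (4427) and of the germ cell list to 1120 (915.6). The number of genes that hold 50% of the total was 907 without mitochondrial genes, 1177 in CPM, which is not per length, and 898 with every deposited row kept, against 524 as reported. The median CV was 8.32% for genes of at least 10 TPM and 18.8% for all genes with a count, against 11.7%. Leaving out 1 library in turn gave a median CV of 8.97 to 10.4%, a CV of 2 libraries, and 15677 to 15843 genes of at least 1 TPM. It gave 497 to 542 genes for 50% of the total, and sums of 7034 to 7825 TPM for the Leydig list, 4145 to 4711 for the Sertoli list and 865.8 to 949.8 for the germ cell list. The alternatives of leaving spike-ins out of the total and of using only unshared exon length were chosen after seeing the data. Using only unshared exon length moved 7 values, Insl3 among them. No paired analysis was possible because only 1 group was described. Depth limits genes of a few counts, for which 1 read decides the level.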

Other observations

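The ligands that pass between the cell types of the testis differed widely in level. Mdk and Ptn, heparin-binding growth factors, had 792, 785 and 865 TPM and 551, 511 and 556 TPM in replicates 01, 08 and 15. Both were above Insl3 in each library over the full exon length, but over unshared length Ptn, at 516, 481 and 525 TPM, was below Insl3, at 693, 634 and 804 TPM. Igfbp2, a binding protein of insulin-like growth factors, had 772, 699 and 749 TPM. Wnt6, a secreted Wnt ligand, had 185, 166 and 183 TPM, against 13.9, 17.2 and 13.1 TPM for Wnt4, a Wnt ligand known for its role in the ovary. Gdnf, which sustains spermatogonial stem cells, had 17.7, 15.8 and 17.0 TPM, and its signalling receptor Ret had 3.24, 3.79 and 3.20 TPM. Nodal and Lefty1 were under 1 TPM in all 3 libraries, while Lefty2 averaged 7.67 TPM.

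Retinoic acid genes were present on both sides. Aldh1a1, which makes retinoic acid, had 383, 315 and 338 TPM, and Cyp26b1, which degrades it and keeps fetal male germ cells out of meiosis in mouse, had 84.4, 52.6 and 60.4 TPM. Genes of the Y chromosome gave 0.041%, 0.042% and 0.035% of the summed TPM. Eif2s3y, a translation factor subunit, had 98.7, 101 and 95.9 TPM, while Tspy1 and Sry were not detected.

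Fkbp5, a chaperone induced by glucocorticoids and androgens, had 134, 136 and 125 TPM, the highest of the 9 matched steroid response genes. Klk1, a kallikrein, was not detected. Eef1a1, a translation elongation factor, had 782, 725 and 537 TPM although 95.4% of its exon length is shared with ENSRNOG00000070285, so its level per length is uncertain. With every counted read placed on the unshared length, it was 15823, 14722 and 10954 TPM (rank 5). The sum of the reference gene list was then 22337 TPM, against 9715 TPM over the full length.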
